A study of Mus musculus with 24 samples.

Results

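RNA of mouse primary cortical astrocytes was examined for 8 genes that carry cholesterol into, through and out of a cell: *Lrp1*, *Mylip*, *Stard4*, *Npc1*, *Npc2*, *Abca1*, *Abcg1* and *Apoe*. They were taken by symbol from the 32719 genes counted, all 8 were found, and all 8 passed the filter on low counts that left 15599 genes for testing. The 24 libraries formed 6 groups of 4. IRKO cells, in which Cre was to delete the insulin receptor gene, received insulin or IGF-1, each at 100 nM, or vehicle for 6 h, and IRflox cells, the floxed controls that keep the receptor gene, received the same 3 treatments. Every culture came from the cortex of newborn pups with floxed insulin receptor alleles, was shaken to remove cells other than astrocytes, bore the mark DIV14 in its title, was used 5 days after adenovirus infection and was starved of serum overnight in medium with 0.1% BSA before treatment. IRKO cells received a virus for Cre:GFP and IRflox cells a virus for GFP alone, so that receptor loss and the kind of virus cannot be told apart. Whether replicates stem from different cultures or litters is not stated, so p-values reflect the scatter of the libraries at hand, part of which could be technical.

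Astrocytes make most of the cholesterol used in the brain, because plasma lipoproteins do not cross the blood-brain barrier, and they hand it to neurons on particles built around apolipoprotein E. Cells balance sterol supply through a pair of opposed transcription programs: SREBP-2 switches on synthesis and uptake genes when sterol is short, and the liver X receptors (LXRs) switch on export genes when oxysterols are plentiful. On the uptake side, Lrp1 is a large endocytic receptor for apolipoprotein E and many other ligands, and Mylip (Idol) is an LXR-driven ubiquitin ligase that marks lipoprotein receptors for degradation. Inside the cell, Npc2 and Npc1 pass cholesterol out of lysosomes in sequence, and Stard4 carries sterol between membranes in the cytosol. Abca1 and Abcg1 are pumps that load cellular cholesterol onto lipoproteins.

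Each library held 15429688 to 19010986 gene counts. *Insr*, the targeted gene, was lower in IRKO cells in each treatment, with 29.0 ± 1.70 CPM (counts scaled to a common library size) against 49.6 ± 2.35 CPM in IRflox cells under insulin, 30.3 ± 1.40 against 48.5 ± 1.95 CPM with IGF-1 and 40.4 ± 2.47 against 61.6 ± 3.60 CPM with vehicle (SD, n = 4 each). Counts per gene do not show which exons of *Insr* the remaining reads cover. The 12 astrocyte markers summed to 3929.9 to 4694 CPM in every library, with *Aqp4* at 982 CPM or more and *Gfap* at 618 CPM or more. Microglial markers were also present: 15 of 15 had counts in every group, and they summed to 1652 to 1715 CPM (insulin), 1635 to 1745 CPM (IGF-1) and 1908 to 1929.8 CPM (vehicle) in IRKO cells, and to 1386 to 1494, 1417 to 1516 and 1554 to 1666 CPM in IRflox cells under the same treatments. In bulk RNA, fewer cells of a type and less RNA per cell cannot be told apart.

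The ligands changed the transport and export genes in a mixed pattern in which a single gene rose and most others fell. In IRKO cells under insulin, 1 of the 8 genes was higher than under vehicle and 5 were lower, where 46.4% of all tested genes passed an edgeR adjusted p of 0.05 (24.7% higher and 21.7% lower). In IRKO cells under IGF-1, 1 was higher and 6 were lower, where 52% of all tested genes passed (26.9% higher and 25.1% lower). In IRflox cells under insulin, 1 was higher and 4 were lower, where 45.7% of all genes passed (24.3% higher and 21.4% lower). In IRflox cells under IGF-1 the counts were again 1 and 4, where 50.8% passed (26.4% higher and 24.4% lower). Of the 32 tests of a member against vehicle, 4 were higher, all of them *Stard4*, 19 were lower and 9 did not pass. The median log2 fold change of the 8 genes was -0.20 (insulin) and -0.31 (IGF-1) in IRKO cells and -0.15 and -0.23 in IRflox cells, where the median over all genes was within 0.01 of 0. In each of the 4 comparisons 1 member was higher and 4 were lower in every ligand library than in every vehicle library, and between 38.1% and 44.9% of all tested genes were separated in this way. The comparisons within a genotype share their vehicle libraries.

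**Figure D1:**
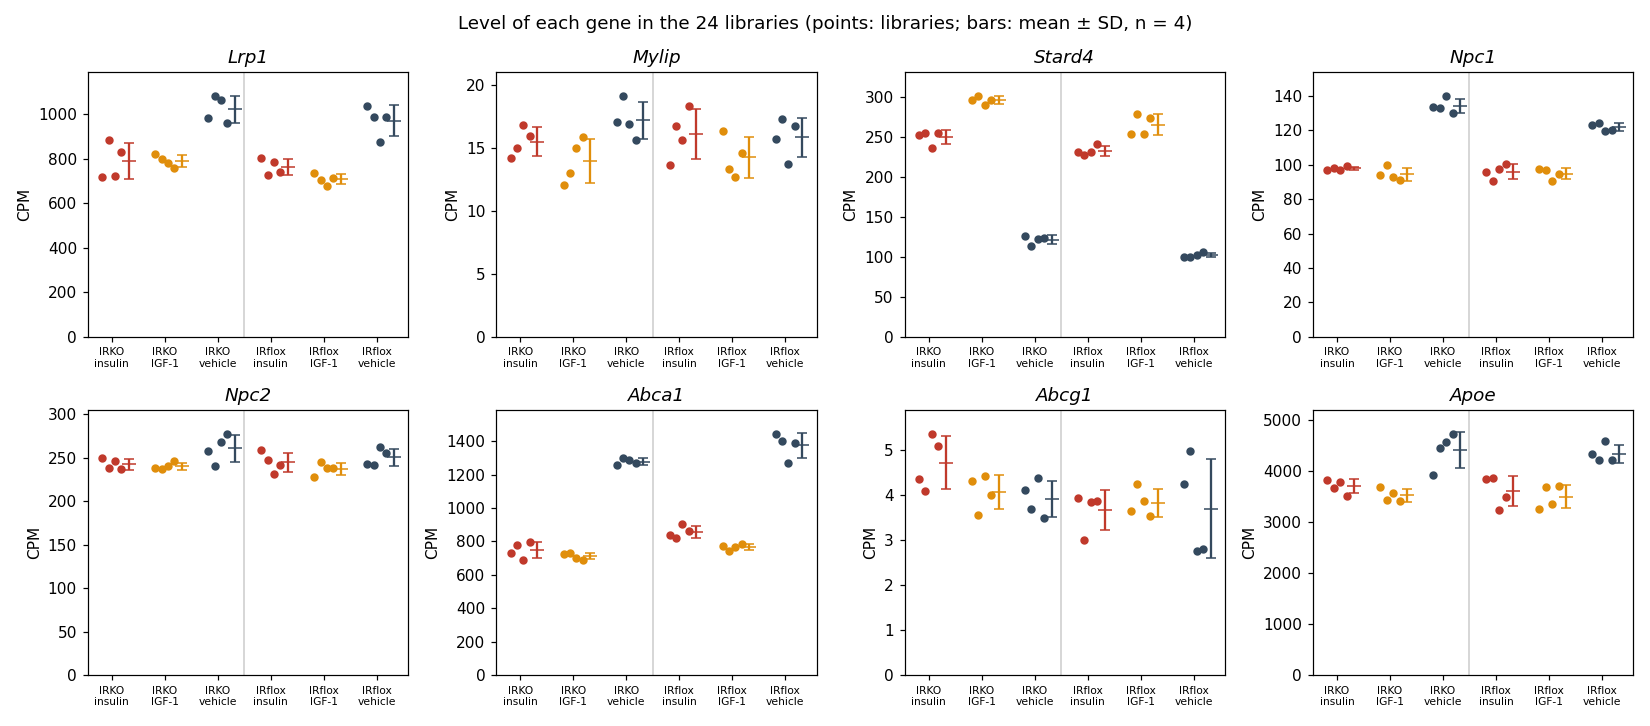
CPM of each gene (y axis, each panel from 0) in the 24 libraries by group (x axis). Points are libraries, and the bar beside them is the mean ± SD of 4. Stard4 stands above its vehicle libraries in all 4 ligand groups, Abca1, Lrp1, Npc1 and Apoe stand below theirs, and the points of Mylip and Abcg1 overlap between ligand and vehicle.

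*Lrp1* (ENSMUSG00000040249, chromosome 10, 127538161 to 127621148, minus strand of mm10) fell under both ligands in both genotypes. IRKO cells had 719, 885, 724 and 829 CPM with insulin and 821, 798, 782 and 756 CPM with IGF-1, against 981, 1082, 1062 and 960.2 CPM with vehicle. IRflox cells had 802, 726, 786 and 740.2 CPM with insulin and 734, 706, 679 and 712 CPM with IGF-1, against 1035, 985, 873 and 989 CPM with vehicle. No ligand library reached the lowest vehicle library of its genotype. The log2 fold change in IRKO cells was -0.37 ± 0.05 (SE) under insulin (edgeR adjusted p = 9.74e-08) and -0.37 ± 0.05 under IGF-1 (edgeR adjusted p = 7.56e-08). For IRflox cells these values were -0.35 ± 0.05 under insulin (edgeR adjusted p = 4.5e-07) and -0.46 ± 0.05 under IGF-1 (edgeR adjusted p = 7.87e-10). The change was -22.7% with either ligand in IRKO cells, and -21.3% with insulin and -27.1% with IGF-1 in IRflox cells.

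*Mylip* (ENSMUSG00000038175, chromosome 13, 45389742 to 45412022, plus strand), the ligase that lowers lipoprotein receptors, was low and passed the test once. It had 12.1, 13.0, 15.004 and 15.8 CPM in IRKO cells under IGF-1, against 17.0, 19.1, 16.9 and 15.7 CPM with vehicle, and the highest IGF-1 library lay above the lowest vehicle library. That fall was -0.30 ± 0.10 on the log2 scale (edgeR adjusted p = 0.00887), and without replicate 1 of the IRKO IGF-1 libraries it was -0.23 with an edgeR adjusted p of 0.0581. With a gene length score, the mean level of long minus short genes in a library, as a covariate it was -0.15 (edgeR adjusted p = 0.41). IRKO cells under insulin had 14.2 to 16.8 CPM, a log2 fold change of -0.15 (95% interval -0.34 to 0.04, edgeR adjusted p = 0.197). In IRflox cells *Mylip* had 13.6 to 18.4 CPM with insulin and 12.7 to 16.3 CPM with IGF-1, against 13.8 to 17.3 CPM with vehicle. Their 95% intervals of the log2 fold change ran from -0.164 to 0.215 for insulin and from -0.345 to 0.038 for IGF-1. The gene had 209 to 368 counts per library.

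The 250 bases before the start of *Mylip* (mm10 chr13:45389492-45389741, plus strand, from RefSeq's table for GRCm38.p6) are shown because the gene sits between the uptake and the LXR programs. The capitals mark a match with 1 mismatch to the sterol element TCACCCCAC, the letters bound by SREBPs, at 128 to 120 bases before the start.
Mylip: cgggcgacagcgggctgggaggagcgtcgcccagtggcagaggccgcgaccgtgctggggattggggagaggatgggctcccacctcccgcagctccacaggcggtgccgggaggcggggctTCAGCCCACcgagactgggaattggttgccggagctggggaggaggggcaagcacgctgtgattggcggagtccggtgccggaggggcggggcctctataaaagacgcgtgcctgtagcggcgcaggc
Such a match on either strand was present in 9.82% of the 32851 promoter windows of 300 bases.

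*Stard4* (ENSMUSG00000024378, chromosome 18, 33199355 to 33213862, minus strand), the cytosolic sterol carrier and a known SREBP-2 target, was the member that rose. IRKO cells had 253, 255, 237 and 255 CPM with insulin and 296, 301, 289.8 and 297 CPM with IGF-1, against 126, 114, 123 and 123 CPM with vehicle. IRflox cells had 231, 227, 231 and 241 CPM with insulin and 254, 279, 254 and 274 CPM with IGF-1, against 99.7, 100.2, 103 and 106 CPM with vehicle. Each ligand library was far above each vehicle library. In IRKO cells the level was 2.06-fold higher under insulin (log2 fold change 1.04 ± 0.04, edgeR adjusted p = 2.86e-24) and 2.44-fold higher under IGF-1 (1.28 ± 0.04, edgeR adjusted p = 1.69e-27). The IRflox level was 2.27-fold higher under insulin (1.18 ± 0.04, edgeR adjusted p = 7.96e-26) and 2.59-fold higher under IGF-1 (1.38 ± 0.04, edgeR adjusted p = 2.48e-28).

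*Npc1* (ENSMUSG00000024413, chromosome 18, 12189692 to 12236400, minus strand), the lysosomal membrane exporter of cholesterol, fell under both ligands. IRKO cells had 97.2, 98.4, 96.8 and 99.1 CPM with insulin and 94.1, 100.0, 92.6 and 91.0 CPM with IGF-1, against 133, 133, 140.0 and 130.1 CPM with vehicle. IRflox cells had 95.9, 90.6, 97.4 and 100.4 CPM with insulin and 97.3, 96.7, 90.5 and 94.6 CPM with IGF-1, against 123, 124, 119 and 120.1 CPM with vehicle. The ligand libraries of both genotypes lay in the same narrow range, and both sets of vehicle libraries lay above it. The log2 fold change was -0.45 ± 0.04 under insulin (edgeR adjusted p = 7.2e-13) and -0.51 ± 0.04 under IGF-1 (edgeR adjusted p = 2.49e-14) in IRKO cells. It was -0.34 ± 0.04 (edgeR adjusted p = 1.71e-09) and -0.36 ± 0.04 (edgeR adjusted p = 2.97e-10) for insulin and IGF-1 in IRflox cells. Of the exon length of *Npc1*, 4.52% is shared with the opposite-strand gene *Rmc1*, and reads there cannot be assigned without strand.

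*Npc2* (ENSMUSG00000021242, chromosome 12, 84754562 to 84773152, minus strand), the soluble lysosomal partner of Npc1, moved little. IRKO cells had 250.1, 238, 246 and 237 CPM with insulin and 238, 237, 240.3 and 246 CPM with IGF-1, against 257, 240.4, 268 and 277 CPM with vehicle, and both ligand groups overlapped with vehicle. The falls in IRKO cells were -0.10 ± 0.04 (edgeR adjusted p = 0.0312) and -0.12 ± 0.04 (edgeR adjusted p = 0.0134) on the log2 scale for insulin and IGF-1. The insulin call was lost without replicate 3 or 4 of the IRKO vehicle libraries (edgeR adjusted p = 0.0946 and 0.157) or without replicate 2 or 4 of the IRKO insulin libraries (edgeR adjusted p = 0.0622 and 0.0639). The IGF-1 call was lost without replicate 4 of the IRKO vehicle libraries (edgeR adjusted p = 0.0844). In IRflox cells *Npc2* had 231 to 259 CPM with insulin and 228 to 245 CPM with IGF-1, against 241 to 262 CPM with vehicle, and the 95% intervals ran from -0.11 to 0.05 and from -0.16 to 0.001. The IGF-1 value there, -0.08 (edgeR adjusted p = 0.102), passed under library size alone (-0.10, edgeR adjusted p = 0.0365), with genes of a mean CPM of at least 1 (-0.10, edgeR adjusted p = 0.024) and in 4 fits without 1 library (edgeR adjusted p = 0.0278 to 0.0475). With the mean level of microglial markers as a covariate the IRKO values turned to 0.07 ± 0.07 under either ligand (edgeR adjusted p = 0.511 for insulin and 0.504 for IGF-1). Every IRKO ligand library had a lower microglial mean than every IRKO vehicle library, so that fit separates the mean from treatment poorly. With the length score as a covariate *Npc2* was lower in all 4 comparisons.

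*Abca1* (ENSMUSG00000015243, chromosome 4, 53030787 to 53159895, minus strand), the pump that lipidates apolipoprotein E and an LXR target, fell under both ligands by more than any other member did. IRKO cells had 728, 777, 689 and 794 CPM with insulin and 723, 728, 702 and 691 CPM with IGF-1, against 1255, 1299.5, 1286 and 1269 CPM with vehicle. IRflox cells had 837, 819, 905 and 864 CPM with insulin and 772, 741, 769 and 784 CPM with IGF-1, against 1442, 1400.2, 1267 and 1391 CPM with vehicle. The ligand and vehicle libraries were widely separated in both genotypes. The change of *Abca1* in IRKO cells was -41.5% under insulin (log2 fold change -0.77 ± 0.04, edgeR adjusted p = 2.03e-19) and -44.4% under IGF-1 (-0.85 ± 0.04, edgeR adjusted p = 8.42e-21). The change in IRflox cells was -37.7% under insulin (-0.68 ± 0.04, edgeR adjusted p = 1.21e-17) and -44.3% under IGF-1 (-0.84 ± 0.04, edgeR adjusted p = 8.84e-21).

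*Apoe* (ENSMUSG00000002985, chromosome 7, 19696109 to 19699188, minus strand), the main lipoprotein component of the brain, fell by less. IRKO cells had 3829.9, 3665, 3782 and 3516 CPM with insulin and 3683, 3435, 3568 and 3411 CPM with IGF-1, against 3918, 4453, 4565 and 4719 CPM with vehicle. IRflox cells had 3833, 3859, 3234 and 3489 CPM with insulin and 3245, 3683, 3353 and 3699 CPM with IGF-1, against 4337, 4208, 4578 and 4219 CPM with vehicle. The groups did not overlap, but in IRKO cells the highest insulin library came close to the lowest vehicle library. The log2 fold change in IRKO cells was -0.26 ± 0.05 under insulin (edgeR adjusted p = 5.34e-05) and -0.32 ± 0.05 under IGF-1 (edgeR adjusted p = 7.49e-07). In IRflox cells it was -0.27 ± 0.05 (edgeR adjusted p = 2.73e-05) and -0.31 ± 0.05 (edgeR adjusted p = 1.66e-06) for insulin and IGF-1. Microglia also express *Apoe*, and 8 to 12 of 15 microglial markers fell in the same comparisons, where 21.4% to 25.1% of all tested genes fell. With their mean level as a covariate the *Apoe* value was -0.03 (edgeR adjusted p = 0.861) and -0.07 (edgeR adjusted p = 0.613) for insulin and IGF-1 in IRKO cells, and -0.07 (edgeR adjusted p = 0.562) and -0.17 (edgeR adjusted p = 0.0266) in IRflox cells, so that 3 of the 4 calls were lost. For these 3 the SE was 0.08 to 0.09 with the covariate, against 0.05 without it. In both genotypes every ligand library had a lower microglial mean than every vehicle library, so this fit separates that mean from treatment poorly.

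The 250 bases before the starts of *Abca1* (mm10 chr4:53159896-53160145, minus strand) and *Apoe* (mm10 chr7:19699189-19699438, minus strand) are shown because both export genes fell under the ligands. *Abcg1*, the other export gene, did not pass. In *Abca1* the capitals mark, 67 to 52 bases before the start and on the opposite strand, a match with 3 mismatches to an LXR element, which is a pair of AGGTCA repeats with 4 bases between. In *Apoe* the capitals mark a match with 1 mismatch to the sterol element, 213 to 205 bases before the start. The other windows of *Apoe* held no such match.
Abca1: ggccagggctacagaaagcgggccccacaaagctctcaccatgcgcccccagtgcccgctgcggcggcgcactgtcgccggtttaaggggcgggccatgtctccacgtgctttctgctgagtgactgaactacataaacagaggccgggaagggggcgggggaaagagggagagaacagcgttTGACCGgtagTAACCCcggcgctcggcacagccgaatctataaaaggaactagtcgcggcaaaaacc
Apoe: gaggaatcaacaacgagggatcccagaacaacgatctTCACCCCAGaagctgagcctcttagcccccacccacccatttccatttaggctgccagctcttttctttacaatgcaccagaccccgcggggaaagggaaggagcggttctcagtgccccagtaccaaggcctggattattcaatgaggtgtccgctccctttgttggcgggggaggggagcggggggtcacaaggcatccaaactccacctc
A match to the LXR element with up to 3 mismatches on either strand was present in 21.9% of all promoter windows, and with up to 2 mismatches in 3.02%. No window of a member held the stricter match, which was the one planned, and the looser search was not part of the plan. Windows were found for 5 of the 8 members: *Lrp1*, *Mylip*, *Npc2*, *Abca1* and *Apoe*, the last with 3 alternative windows. The exact TFEB E-box TCACGTG was in no window of a member and in 3.77% of all. The exact FOXO element GTAAACA was in 1 of the 3 *Apoe* windows and in 3.65% of all. The GC box GGGCGG was in a window of *Abca1*, *Lrp1*, *Npc2* and *Mylip* and in 35.7% of all.

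*Abcg1* (ENSMUSG00000024030, chromosome 17, 31057675 to 31117988, plus strand), the other export pump, had the lowest level of the 8 genes, with 49 to 90 counts per library. IRKO cells had 4.35, 4.09, 5.35 and 5.09 CPM with insulin and 4.30, 3.55, 4.42 and 4.01 CPM with IGF-1, against 4.11, 3.69, 4.37 and 3.49 CPM with vehicle. IRflox cells had 3.94, 3.00, 3.84 and 3.87 CPM with insulin and 3.66, 4.25, 3.87 and 3.54 CPM with IGF-1, against 4.25, 4.99, 2.76 and 2.80 CPM with vehicle. All ligand groups overlapped with vehicle. The 95% intervals of the log2 fold change were -0.045 to 0.58 (insulin) and -0.26 to 0.38 (IGF-1) in IRKO cells, and -0.34 to 0.33 and -0.265 to 0.39 in IRflox cells. A fall as large as that of *Abca1* lies outside all 4 intervals.

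**Figure D2:**
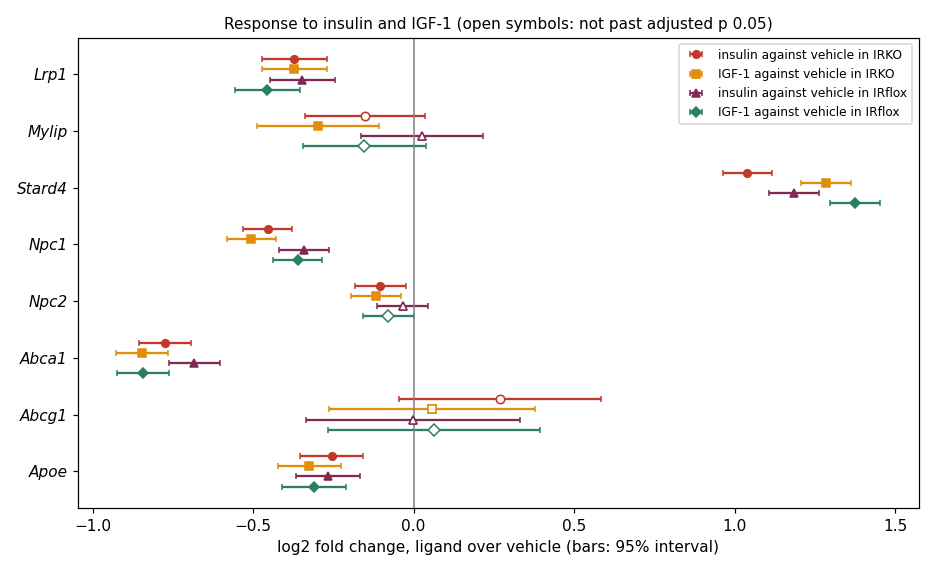
Log2 fold change of each gene (rows) under a ligand relative to vehicle (x axis), with 95% intervals, in 4 comparisons. Filled symbols passed an edgeR adjusted p of 0.05 and open symbols did not. Stard4 lies between 1.04 and 1.38, Abca1 between -0.85 and -0.68, and Lrp1, Npc1 and Apoe between -0.51 and -0.26.

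Set against each other within a library, the sterol carrier and the export pump moved apart, while the ratio of apolipoprotein E to the uptake receptor overlapped between treatments. The ratio of *Stard4* to *Abca1* CPM was 0.335 ± 0.0125 under insulin and 0.416 ± 0.00881 under IGF-1 in IRKO cells, against 0.0952 ± 0.00542 under vehicle (SD, n = 4 each). The IRflox ratio was 0.272 ± 0.0110 under insulin and 0.346 ± 0.0223 under IGF-1, against 0.0745 ± 0.00525 under vehicle. The lowest ratio in any ligand library, 0.255, was above the highest in any vehicle library, 0.100. The ratio of *Lrp1* to *Abca1*, uptake to export, was 1.06 ± 0.0627 and 1.11 ± 0.0188 under insulin and IGF-1 in IRKO cells, against 0.799 ± 0.0365 under vehicle. The IRflox values were 0.893 ± 0.0454 and 0.924 ± 0.0344, against 0.705 ± 0.0121 under vehicle. *Apoe* over *Lrp1* overlapped between treatments, at 4.73 ± 0.627, 4.47 ± 0.114 and 4.33 ± 0.409 under insulin, IGF-1 and vehicle in IRKO cells and 4.73 ± 0.492, 4.94 ± 0.371 and 4.49 ± 0.501 in IRflox cells. *Npc2* over *Npc1*, the lysosomal pair, was 2.48 ± 0.0913 and 2.55 ± 0.140 under insulin and IGF-1 in IRKO cells, against 1.95 ± 0.134 under vehicle. It was 2.55 ± 0.187 and 2.50 ± 0.120 in IRflox cells, against 2.06 ± 0.123 under vehicle. These ratios are not corrected for gene length, serve to compare groups only, and were given no test because they combine genes already tested above.

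**Figure D3:**
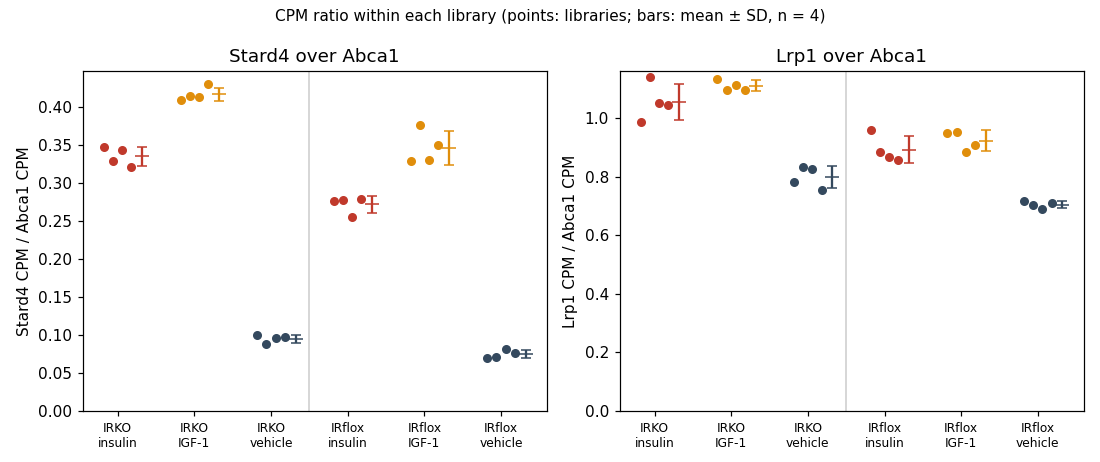
Ratio of Stard4 to Abca1 CPM (left) and of Lrp1 to Abca1 CPM (right) in each library (y axes, from 0) by group. Points are libraries and bars are mean ± SD of 4. All ligand libraries lie above the vehicle libraries of their genotype in both panels, and the Stard4 to Abca1 ratio under IGF-1 lies above that under insulin.

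Per kilobase of the principal transcript, the 8 genes spanned more than 3 orders of magnitude. Under vehicle, *Apoe* had 3135 ± 247 CPM per kb in IRKO cells and 3079 ± 122 in IRflox cells (SD, n = 4 each), followed by *Abca1* with 124 ± 1.88 and 134 ± 7.36, *Npc2* with 79.0 ± 4.79 and 75.9 ± 3.08, and *Lrp1* with 68.6 ± 4.01 and 65.2 ± 4.61. *Npc1* had 25.7 ± 0.806 and 23.3 ± 0.453 CPM per kb in IRKO and IRflox cells, *Stard4* 23.8 ± 1.03 and 20.05 ± 0.586, *Mylip* 5.61 ± 0.468 and 5.17 ± 0.507, and *Abcg1* 0.671 ± 0.0686 and 0.634 ± 0.189. The ranges of neighbouring genes in this order did not overlap under vehicle. Under IGF-1, *Stard4* stood above *Lrp1* in both genotypes, with 58.1 ± 0.919 against 53.0 ± 1.83 CPM per kb in IRKO cells and 52.0 ± 2.61 against 47.5 ± 1.53 in IRflox cells. *Abca1* and *Npc2* overlapped in IRflox cells under IGF-1 and in IRKO cells under insulin, and *Npc2* stood above *Abca1* in IRKO cells under IGF-1, at 72.9 ± 1.19 against 69.3 ± 1.72 CPM per kb. *Stard4* and *Lrp1* overlapped in IRKO cells under insulin. With all annotated exons as the length, *Lrp1* (57.7 and 54.8 CPM per kb in IRKO and IRflox cells under vehicle) stood above *Npc2* (48.0 and 46.0), and *Stard4* (21.8 and 18.3) above *Npc1* (11.8 and 10.8), and *Abca1* stood well above *Npc2* in the ligand groups too (72.1 against 44.6 in IRKO cells under insulin and 74.0 against 43.6 in IRflox cells under IGF-1), so the order within these pairs depends on the transcript model.

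Insulin and IGF-1 at the same dose and time differed in *Stard4* and, in IRflox cells, in *Abca1*. In IRKO cells 0 of the 8 genes were higher and 1 was lower under insulin than under IGF-1, where 2.67% of all genes passed (1.06% higher and 1.61% lower). In IRflox cells 1 was higher and 1 lower, where 2.59% passed (1.49% higher and 1.1% lower). *Stard4* was lower under insulin than under IGF-1 by a log2 difference of -0.24 ± 0.04 in IRKO cells (edgeR adjusted p = 6.96e-05) and -0.19 ± 0.04 in IRflox cells (edgeR adjusted p = 0.00188), and the libraries of both ligands did not overlap in either genotype. *Abca1* was higher under insulin than under IGF-1 in IRflox cells, by 0.16 ± 0.04 (edgeR adjusted p = 0.0209), and in IRKO cells the difference was 0.07 (95% interval -0.01 to 0.15, edgeR adjusted p = 0.456). The *Abca1* call was lost without replicate 2 of the IRflox IGF-1 libraries (edgeR adjusted p = 0.116) or replicate 3 of the IRflox insulin libraries (edgeR adjusted p = 0.117). For *Lrp1* the 95% intervals of insulin minus IGF-1 were -0.10 to 0.10 in IRKO cells and 0.008 to 0.21 in IRflox cells (edgeR adjusted p = 0.335). For *Npc1* they were -0.03 to 0.13 and -0.06 to 0.10, and for *Apoe* -0.03 to 0.17 and -0.055 to 0.14.

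IRKO and IRflox cells given the same treatment differed by small steps in the members that passed. Under vehicle 2 of the 8 genes were higher in IRKO cells and 0 lower, where 7.86% of all genes passed (3.76% higher and 4.1% lower). Under insulin 0 were higher and 1 lower, where 10.5% passed (4.94% higher and 5.53% lower). Under IGF-1 1 was higher and 0 lower, where 6.76% passed (3.62% higher and 3.15% lower). *Stard4* was higher in IRKO than in IRflox cells under vehicle (114 to 126 CPM against 99.7 to 106 CPM) by 0.25 ± 0.04 on the log2 scale (edgeR adjusted p = 4.07e-05). It was also higher under IGF-1 by 0.16 ± 0.04 (edgeR adjusted p = 0.00568), and under insulin the difference was 0.10 ± 0.04 (edgeR adjusted p = 0.0721). *Npc1* was higher in IRKO cells under vehicle (130.1 to 140.0 CPM against 119 to 124 CPM) by 0.14 ± 0.04 (edgeR adjusted p = 0.0163). That call was lost without replicate 3 or 4 of the IRflox vehicle libraries (edgeR adjusted p = 0.0593 and 0.0692) or replicate 3 of the IRKO vehicle libraries (edgeR adjusted p = 0.0823). *Abca1* was lower in IRKO than in IRflox cells under insulin (689 to 794 CPM against 819 to 905 CPM) by a log2 difference of -0.20 ± 0.04 (edgeR adjusted p = 0.000924), and differences of -0.11 ± 0.04 under IGF-1 and under vehicle did not pass (edgeR adjusted p = 0.105 and 0.102). Both passed with the length score as a covariate (edgeR adjusted p = 0.0147 and 0.0235) and without replicate 3 of the IRflox vehicle libraries (edgeR adjusted p = 0.0479 and 0.0227), and the IGF-1 difference also with only the libraries compared (edgeR adjusted p = 0.0276). *Lrp1* differed by 0.16 ± 0.05 under IGF-1 with no overlap between libraries, just short of the threshold (edgeR adjusted p = 0.0572), and passed with only the libraries compared (edgeR adjusted p = 0.00129), without a filter on low counts (edgeR adjusted p = 0.00505) and with the length score (edgeR adjusted p = 0.0114). *Apoe* differed by 0.01 to 0.04 in the 3 treatments, with 95% intervals inside -0.09 to 0.14. The largest difference was that of the low gene *Abcg1* under insulin, higher in IRKO cells by 0.37 ± 0.16, opposite to *Abca1*. It did not pass (95% interval 0.04 to 0.69, edgeR adjusted p = 0.159). Its libraries, at 50 to 90 counts, did not overlap, and 15% of all tested genes were separated in this way.

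The ligand responses of IRKO and IRflox cells were compared directly by the difference of their log2 fold changes. None of the 16 tests of a member passed, and over all genes edgeR called 0 (0%) in the insulin response and 0 in the IGF-1 response, where 838 and 822 genes had an unadjusted p under 0.05 and DESeq2 called 0 and 2. The insulin response of *Stard4* in IRKO minus IRflox cells was -0.14 ± 0.06 (unadjusted p = 0.0132, edgeR adjusted p = 0.884). For *Npc1* the difference was -0.11 ± 0.06 for insulin (unadjusted p = 0.0477, edgeR adjusted p = 0.922) and -0.14 ± 0.06 for IGF-1 (unadjusted p = 0.0131, edgeR adjusted p = 0.871). For *Abca1* the 95% intervals of the difference were -0.20 to 0.02 for insulin and -0.115 to 0.11 for IGF-1. For *Apoe* they were -0.13 to 0.15 and -0.15 to 0.13, and for *Lrp1* -0.17 to 0.12 and -0.06 to 0.23. Differences beyond 0.25 on the log2 scale thus lay outside the intervals of *Abca1*, *Apoe* and *Lrp1*, while those of *Mylip* (-0.44 to 0.09 for insulin) and *Abcg1* (-0.19 to 0.73) were wider.

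Microglial markers moved with the treatments and with the genotype. Of 15 such genes, 12 fell under insulin and 11 under IGF-1 in IRKO cells, and 10 and 8 in IRflox cells, and none rose. Of all tested genes 21.7% and 25.1% fell in IRKO cells and 21.4% and 24.4% in IRflox cells. In IRKO relative to IRflox cells 10 were higher under insulin, 8 under IGF-1 and 13 under vehicle, and none was lower, where 4.94%, 3.62% and 3.76% of all tested genes were higher. *Csf1r*, the microglial growth factor receptor, had 269 ± 0.395, 269 ± 5.31 and 325 ± 15.5 CPM in IRKO cells under insulin, IGF-1 and vehicle, and 232 ± 10.3, 231 ± 5.33 and 267 ± 7.99 CPM in IRflox cells. *C1qa*, a complement gene of microglia, had 129 ± 5.46, 124 ± 6.73 and 156 ± 9.20 CPM in IRKO cells and 109 ± 13.3, 111 ± 3.15 and 137 ± 7.96 CPM in IRflox cells in the same order. With the mean level of the 15 markers as a covariate, *Abca1* was -0.93 and -1.02 for insulin and IGF-1 in IRKO cells and -0.82 and -0.94 in IRflox cells, *Lrp1* -0.56 and -0.58, and -0.51 and -0.57, *Npc1* -0.48 and -0.54, and -0.37 and -0.38, and *Stard4* 1.09 and 1.34, and 1.23 and 1.41, each still past the threshold. Every difference between IRKO and IRflox cells called above lost its call in that fit. Under vehicle *Stard4* was at 0.19 ± 0.08 (edgeR adjusted p = 0.244) and *Npc1* at 0.17 ± 0.08 (edgeR adjusted p = 0.314). *Abca1* was at -0.04 (edgeR adjusted p = 0.816) under insulin and *Stard4* at 0.13 (edgeR adjusted p = 0.171) under IGF-1. Without the score the vehicle values were 0.25 ± 0.04 for *Stard4* and 0.14 ± 0.04 for *Npc1*, so the *Npc1* call was lost through a larger SE. In each treatment every IRKO library had a higher microglial mean than every IRflox library, so the fit separates this mean from genotype poorly. It separates the mean from treatment poorly as well, because ligand libraries lay below all vehicle libraries of their genotype. The microglial mean (log2 CPM) was 5.82 to 5.92 against 6.05 to 6.13 in IRKO cells and 5.56 to 5.75 against 5.81 to 5.89 in IRflox cells. The difference of *Abca1* between insulin and IGF-1 in IRflox cells was lost as well, at 0.12 (edgeR adjusted p = 0.141). *Lrp1* was then higher in IRKO than in IRflox cells under IGF-1, by 0.27 ± 0.07 (edgeR adjusted p = 0.0146). Within groups the microglial mean correlated with *Apoe* at r = 0.55, *Npc2* at 0.64, *Abca1* at -0.56 and *Lrp1* at -0.44 (24 libraries). Markers and members were read in the same libraries and so share the depth and cell makeup of each.

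Gene length also moved with treatment. A length score, the mean log2 CPM of 1998 long genes (over 8 kb of exon) minus that of 895 short genes (under 2 kb), centred over all libraries, averaged -0.06, -0.07 and 0.13 under insulin, IGF-1 and vehicle in IRKO cells and -0.03, -0.08 and 0.13 in IRflox cells. By annotated exon length, *Lrp1*, *Abca1* and *Npc1* belong to the long genes, and no member to the short ones. By the principal transcript, *Npc1* (5.22 kb) would not be long and *Apoe* (1.41 kb) would be short. Within groups the score correlated with *Lrp1* (r = 0.73) and *Abca1* (r = 0.79) and inversely with *Npc2* (r = -0.80) and *Apoe* (r = -0.57), and the values for *Npc1* and *Stard4* were 0.33 and -0.23. With this score as a covariate, a fit chosen after the data were seen, the fall of *Lrp1* was -0.18 and -0.17 for insulin and IGF-1 in IRKO cells and -0.18 and -0.24 in IRflox cells (edgeR adjusted p = 0.0157 or less). *Abca1* was -0.64 and -0.70 in IRKO cells and -0.57 and -0.69 in IRflox cells, and *Stard4* 1.01 and 1.25, and 1.16 and 1.34. *Apoe* was -0.40 and -0.48 in IRKO cells and -0.39 and -0.47 in IRflox cells. *Npc2* was lower under both ligands in both genotypes in that fit, at -0.24 and -0.26 in IRKO cells and -0.15 and -0.22 in IRflox cells (edgeR adjusted p = 0.00508 or less). The ligand calls of *Abca1*, *Lrp1*, *Npc1* and *Stard4* and their directions were kept in both fits, but the sizes of *Lrp1* and *Abca1* were not. In IRKO cells under insulin *Lrp1* was -0.56 with the microglial mean and -0.18 with the length score, against -0.37 with no covariate. *Abca1* was -0.93 and -0.64 in the same order, against -0.77.

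**Figure D4:**
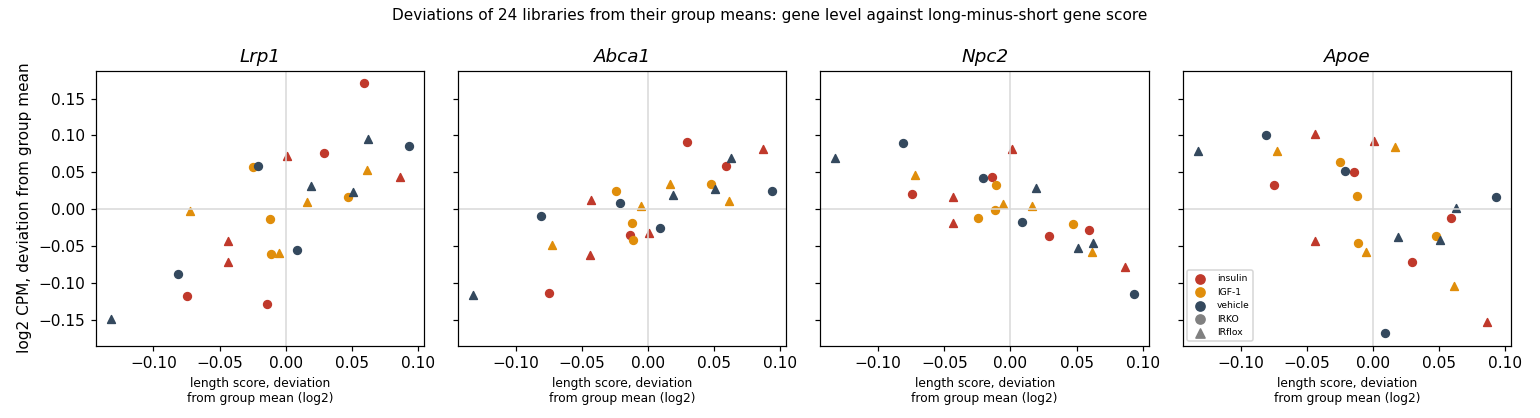
Deviation of log2 CPM from the group mean (y axis) against the deviation of the length score from the group mean (x axis) for 4 genes in 24 libraries. Circles are IRKO and triangles IRflox libraries, coloured by treatment. Within groups, Lrp1 and Abca1 run upward with the score (r = 0.73 and 0.79), and Npc2 and Apoe run downward (r = -0.80 and -0.57).

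**Figure D5:**
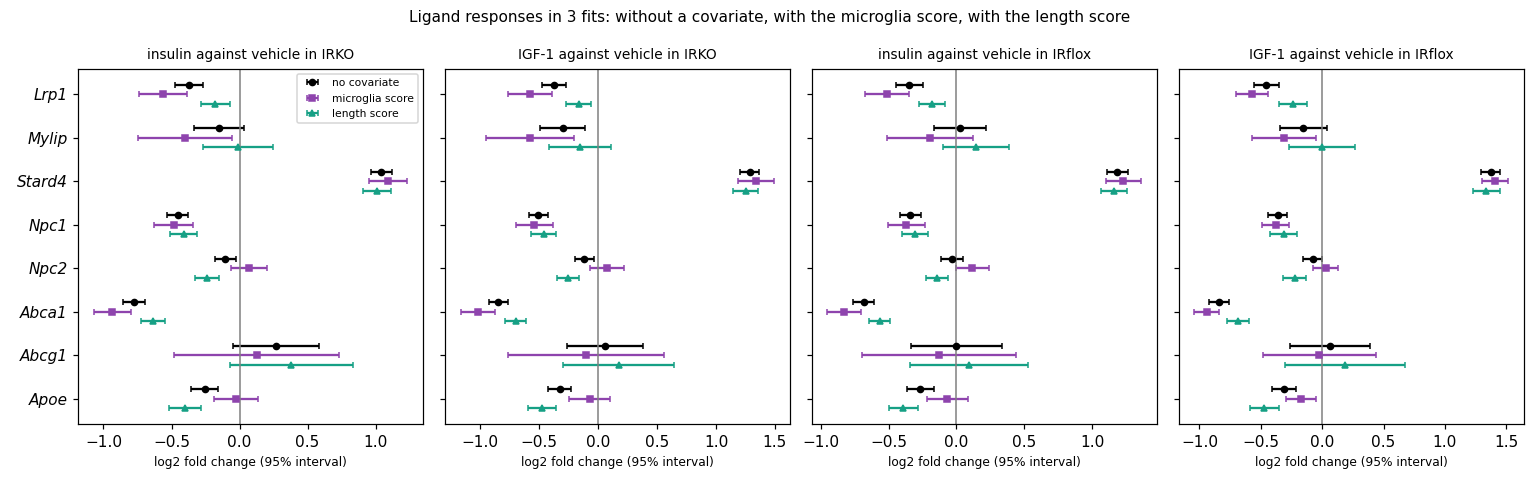
Log2 fold change of each gene relative to vehicle (x axis, 95% intervals) in 4 comparisons (panels), without a covariate, with the microglia score and with the length score. Stard4, Abca1 and Npc1 keep their side of 0 in all fits, and the intervals of Apoe with the microglia score include 0 in 3 of the 4 panels.

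Across the 24 libraries each member was ranked against 12086 genes by the Pearson correlation of log2 CPM. *Stard4* was most like *Hsd17b7* (r = 0.998) and *Sc5d* (0.996), which both encode enzymes of cholesterol synthesis. *Abca1* was most like *Kcnq3*, a potassium channel subunit (0.990), *Hipk1*, a protein kinase (0.990), and *Sesn3*, a sestrin (0.989). *Lrp1* was most like *Chd6* (0.962), *Kmt2a* (0.960) and *Dst* (0.958), *Apoe* like *Mvp* (0.958), *Usf1* (0.954) and *Arl8a* (0.950), and *Npc1* like *Fcho2* (0.977), *Retreg1* (0.972) and *Ampd3* (0.971). The other 3 had weaker neighbours: *Npc2* with *Isoc2a* (0.809), *Mylip* with *Lipa*, the lysosomal acid lipase (0.730), and *Abcg1* with *Nod2* (0.730). Among the members, *Stard4* and *Abca1* were inversely correlated over all libraries (r = -0.98), but within groups the value was 0.13. *Lrp1* and *Abca1* were correlated over all libraries (0.87) and within groups (0.77). *Apoe* and *Npc2* were correlated within groups too (0.61). All genes were read in the same libraries and so share the treatment, depth and length score of each, and the values are descriptions.

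The genes around these members were followed through 5 lists. Of 18 lipoprotein receptors and adaptors, 6 were higher and 9 lower under insulin and 6 and 8 under IGF-1 in IRKO cells, and 6 and 6, and 6 and 7 in IRflox cells, with medians from -0.11 to -0.07 on the log2 scale, where the medians of all genes were within 0.01 of 0. *Lrp8*, an apolipoprotein E receptor also used by reelin, rose to 136 ± 4.12 CPM with insulin and 153 ± 2.40 CPM with IGF-1 in IRKO cells, against 67.9 ± 4.48 CPM with vehicle (log2 fold changes 1.00 and 1.17, edgeR adjusted p = 7.03e-23 and 2.18e-25). In IRflox cells it rose to 148 ± 3.12 and 153 ± 4.24 CPM, against 71.7 ± 2.84 CPM with vehicle (1.04 and 1.09, edgeR adjusted p = 1.88e-23 and 2.33e-24). The uptake receptors therefore moved in both directions, *Lrp8* up and *Lrp1* down.

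Of 23 genes of intracellular sterol transport and storage, 5 were higher and 8 lower under insulin and 6 and 11 under IGF-1 in IRKO cells, and 5 and 8, and 6 and 7 in IRflox cells, with medians from -0.08 to -0.06 (log2). *Tmem97*, an endoplasmic reticulum protein that binds Npc1, rose to 31.9 ± 0.792 and 33.7 ± 1.42 CPM with insulin and IGF-1 in IRKO cells, against 18.5 ± 1.37 CPM with vehicle, and to 32.2 ± 1.67 and 34.6 ± 1.53 CPM in IRflox cells, against 17.5 ± 0.719 CPM with vehicle (log2 fold changes 0.78 to 0.98, edgeR adjusted p = 9.85e-14 or less). *Cav1*, the coat protein of caveolae, rose by 0.38 and 0.54 in IRKO cells and 0.46 and 0.57 in IRflox cells (edgeR adjusted p = 6.48e-08 or less). It was lower in IRKO than in IRflox cells under vehicle, at 69.0 ± 4.58 against 94.9 ± 6.27 CPM (log2 difference -0.46, edgeR adjusted p = 4.65e-08). *Scarb2*, a lysosomal membrane protein that binds cholesterol, fell like *Npc1*, with log2 fold changes of -0.29 and -0.37 in IRKO cells and -0.22 and -0.37 in IRflox cells (edgeR adjusted p = 6.07e-06 or less).

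Of 20 tested genes of sterol export, lipoproteins and oxysterols, 2 were higher and 10 lower under insulin and 2 and 11 under IGF-1 in IRKO cells, and 2 and 9, and 2 and 11 in IRflox cells, with medians from -0.19 to -0.12 (log2). *Clu*, clusterin, another lipoprotein component made by astrocytes, had 1759.6 ± 76.3 and 1688 ± 16.6 CPM with insulin and IGF-1 in IRKO cells, against 1950.4 ± 44.9 CPM with vehicle, and 1855 ± 30.3 and 1739 ± 41.9 CPM in IRflox cells, against 2036 ± 109 CPM with vehicle (edgeR adjusted p = 0.00222 or less). *Pltp*, the phospholipid transfer protein, changed by -0.20 and -0.31 in IRKO cells and -0.20 and -0.28 in IRflox cells (edgeR adjusted p = 0.000163 or less), but 19.3% of its exon length is shared with another gene, so its value is uncertain.

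The regulators of both programs were measured as well, and the counts of all lists stand beside 46.4% (insulin) and 52% (IGF-1) of all tested genes called in IRKO cells and 45.7% and 50.8% in IRflox cells. Of 15 tested LXR and RXR factors and LXR targets outside the members, 4 were higher and 7 lower under insulin and 5 and 8 under IGF-1 in IRKO cells, and 4 and 6, and 4 and 8 in IRflox cells, with medians from -0.15 to -0.08 (log2). *Nr1h2*, LXR beta, changed by -0.24 and -0.35 under insulin and IGF-1 in IRKO cells (80.0 ± 2.96 and 74.0 ± 3.57 CPM, against 94.5 ± 2.69 CPM with vehicle) and by -0.34 under either ligand in IRflox cells (77.6 ± 5.30 and 77.8 ± 3.90 CPM, against 98.2 ± 5.01 CPM with vehicle), with edgeR adjusted p = 6e-05 or less. *Nr1h3*, LXR alpha, was low, with group means of 10.1 to 12.6 CPM, and passed once (0.27 under IGF-1 in IRKO cells, edgeR adjusted p = 0.0361). Of the LXR targets, *Srebf1*, *Scd1* and *Scd2*, which insulin is also known to raise through other factors, rose in all 4 comparisons, opposite to *Abca1*: *Srebf1* by 0.64 and 0.46 in IRKO cells and 0.48 and 0.34 in IRflox cells, *Scd1* by 1.10 and 1.23, and 1.09 and 1.12, and *Scd2* by 0.85 and 0.84, and 0.85 and 0.84, for insulin and IGF-1 (edgeR adjusted p = 1.03e-08 or less). The LXR list and the export list share 3 genes.

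Of 9 genes of SREBP-2 and its regulators, 5 were higher and 3 lower in each of the 4 comparisons, with medians from 0.33 to 0.38 (log2). *Srebf2*, which encodes SREBP-2, rose to 426 ± 14.7 and 436 ± 13.1 CPM with insulin and IGF-1 in IRKO cells, against 336 ± 6.96 CPM with vehicle, and to 427 ± 6.61 and 416 ± 12.5 CPM in IRflox cells, against 329.5 ± 12.9 CPM with vehicle (edgeR adjusted p = 1.58e-10 or less). The synthesis enzymes *Hmgcs1* and *Sqle* rose by 0.97 to 1.26 in all 4 comparisons (edgeR adjusted p = 2.68e-24 or less).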

How the data were processed

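The deposited values are raw counts per gene for each of the 24 libraries, made by the authors from paired reads of non-stranded poly-A libraries, per the labels' protocols. Per the submitters' processing notes, which state no roles, the tools included STAR 2.7.7a, R 4.0.4, DESeq2 and edgeR, and the build was mm10. Which program counted the reads, and on which annotation, is not given in the sources used here. Footer lines, 3 in each library, belong to no gene and did not enter any total: reads outside genes were 14.5 to 23.2% of each total, and gene counts exceeded the reads overlapping genes by 4.55 to 4.93% in each library. Positions come from GENCODE M21, which held 32663 of the 32719 gene identifiers. Its principal transcripts gave the lengths for CPM per kb, and all annotated exons of a gene gave those for the length score.

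Counts were fitted with edgeR 4.0.16 in R 4.3.3 (quasi-likelihood, TMM factors 0.982 to 1.018, 1 mean per group over all 24 libraries, expression filter with a minimum count of 10 and total of 15). The threshold was 0.05 on p-values adjusted after Benjamini and Hochberg in every one of the 11 comparisons. The biological coefficient of variation was 4.92%. CPM use TMM library sizes, log2 CPM a prior count of 2, and 95% intervals are 1.96 SE. Library totals of 15429688 to 19010986 counts set the precision. Each library counted once. Replicate pairs differed by more than sampling noise (chi-square per gene 2.17 to 6.86 in 36 pairs), which does not show whether they come from separate cultures. Groups and replicate numbers come from the titles.

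Named genes were the 8 members, the 3 genes most correlated with each, taken among genes of mean log2 CPM of at least 2, the 3 genes of each list with the lowest p under a ligand in IRflox cells, and a fixed set of regulators and markers. For *Npc2*, *Mylip* and *Abcg1* only the first correlated gene is given. Of the genes chosen in this way, 4 are not reported here. The members, lists and tests were chosen with earlier results of these data known. Promoters are RefSeq's for GRCm38.p6. Alternatives were other scalings, DESeq2 1.42.0, other filters, only the libraries compared, a replicate block, covariates and each library left out in turn. The main edgeR fit was tested on simulated counts with few genes changed in a single group, unlike the many called here. The covariate fits were not tested in this way.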

Additional observations from a re-analysis of the deposited data

Results flagged for a closer look

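Among 48 groups of 4 libraries (8 genes in 6 groups), 2 held a library whose gap to the nearest other library took up more of the group's range than Dixon's 95% critical value allows, and chance alone flags about 1 in 20 groups. *Stard4* in IRKO cells under insulin had 237 CPM in replicate 3, where the other libraries had 253 to 255 CPM. Without that library the difference of *Stard4* between IRKO and IRflox cells under insulin passed the test (log2 difference 0.13, edgeR adjusted p = 0.0311, against 0.10 and 0.0721 with it). *Abcg1* in IRflox cells under insulin had 3.00 CPM in replicate 2, where the other libraries had 3.84 to 3.94 CPM, with 50 to 69 counts per library.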

How the results depend on the processing

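Of 2904 alternatives to the 88 tests of a member, 2859 kept the side of the threshold, 20 lost a call, 23 gained 1, and 2 turned a called value round. These 2 came with the microglia score, where *Npc2* in IRKO cells was 0.0687 under insulin and 0.0738 under IGF-1. Among the 2859, direction was compared only for called values, and some uncalled values changed sign. *Mylip* in IRflox cells under insulin, at 0.03 in the main fit, reached -0.06 with 1 library left out. The ligand calls of *Stard4*, *Abca1*, *Lrp1* and *Npc1* were kept under every alternative run, and those of *Apoe* under all but the microglia score, which ended 3 of its 4. With that score the genes called were 4095 (insulin) and 4367 (IGF-1) in IRKO cells, against 7239 and 8114 without it, and 4452 under insulin in IRflox cells, against 7131. Between IRKO and IRflox cells they were 234 with insulin, 542 with IGF-1 and 118 with vehicle, against 1634, 1055 and 1226 without the score. The SE of *Abca1* in IRKO cells under insulin was 0.07 with the score, against 0.04 without it. For the difference between genotypes in a response, the unfiltered table of 25053 genes gave 19 calls for insulin and 19 for IGF-1, and DESeq2 gave 2 for IGF-1. Leaving out 1 library gave 242 to 450 calls for insulin against IGF-1 in IRflox cells, with the lowest values without replicate 2 of the insulin libraries (242) and replicate 4 of the IGF-1 libraries (251), 266 to 482 in IRKO cells, and 0 to 4 for the difference in the insulin response. In IRKO cells the low values came without insulin replicate 1 (266), insulin replicate 3 (274) or IGF-1 replicate 3 (274). By library size alone, IRKO against IRflox cells under insulin gave 942 genes higher and 698 lower, against 771 and 863 with TMM, and *Stard4* passed (0.12, edgeR adjusted p = 0.0287). Same-numbered libraries of 15 pairs of groups correlated at -0.115 to 0.061 in their deviations from the group means. A library was most like its own number in 14 of 60 cases, among them all 4 of IRflox vehicle with IRKO insulin. The numbers thus gave little sign of pairing, which does not show whether cultures or days were shared. With the number as a replicate block 7229 and 8089 genes were called in IRKO cells under insulin and IGF-1 and 7115 and 7917 in IRflox cells, with no call of a member changed. Where a value moved, the cause was not tested.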

Other observations

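Markers of other cell types were present at lower levels. Of 9 markers of the oligodendrocyte lineage, 6 were tested, and their sum was 367 to 375 CPM under insulin, 394 to 418 CPM under IGF-1 and 266 to 284 CPM under vehicle in IRKO cells, and 312 to 355, 362 to 388 and 247 to 269 CPM in IRflox cells, led by *Olig1*, an early lineage factor. *Olig1* alone had means of 195, 211 and 121 CPM under insulin, IGF-1 and vehicle in IRKO cells and 164, 190 and 113 CPM in IRflox cells. In each ligand comparison 2 of the 6 were higher, and 1 (insulin in IRflox cells) or 2 were lower, with median log2 fold changes of 0.049 to 0.084. The part of the rise in the sum in the responses above was not tested. Of 11 astrocyte markers tested, 5 were higher and 3 lower under insulin and 3 and 4 under IGF-1 in IRKO cells, and 5 and 2, and 3 and 5 in IRflox cells. The counts of both marker lists stand beside 46.4% (insulin) and 52% (IGF-1) of all tested genes called in IRKO cells and 45.7% and 50.8% in IRflox cells. Neuronal markers summed to 126 to 182 CPM over all libraries, fibroblast and mural markers to 411 to 497 CPM, and endothelial markers to 6.19 to 11.3 CPM. *Alb*, the albumin gene of liver, had 0 to 9.27 CPM, beside *Apoe* levels of 3234 CPM or more, and the part of liver RNA in these was not tested.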
